A study of Rattus norvegicus with 6 samples.

Results

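The miR-132/miR-212 cluster comprises 2 neighbouring hairpin precursors whose arms give 4 mature miRNAs, rno-miR-132-5p, rno-miR-132-3p, rno-miR-212-5p and rno-miR-212-3p, written here without the rat prefix. The members were taken by name from the table of read counts, in which all 4 of the 4 names were present among 493 mature miRNAs, and all 4 passed the filter on low counts that left 452 for testing. The counts came from small RNA sequencing of the peri-infarct cortex of male Sprague-Dawley rats, with 1 library for each rat and 3 rats in each group. MCAO rats had 90 min of right middle cerebral artery occlusion with reperfusion, and their cortex was taken at 7 days, counted from reperfusion in the labels of replicates 1 and 2 and from surgery in that of replicate 3. In MCAO-rTMS rats the same occlusion was followed by repetitive transcranial magnetic stimulation at 10 Hz for 10 min a day over 7 days, with the coil above the primary motor cortex of the injured side. The labels of the MCAO-rTMS rats do not give the day on which the cortex was taken. From the labels alone, a difference in time from MCAO rats cannot be told apart from the stimulation. The paper dates its list of miRNAs that differed between these groups to 7 days after modeling. Both groups carried the infarct, and the 6 libraries hold no sham-operated rats and the labels name no sham stimulation, so the comparison is of stimulated with unstimulated ischemic cortex.

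The cluster is known as a neuronal activity-regulated locus. Synaptic activity and BDNF activate the transcription factor CREB, which drives a shared primary transcript, and the enzymes Drosha and Dicer cut each hairpin out of it as a duplex of a 5p and a 3p strand. One strand of a duplex is usually kept in an Argonaute protein and guides it to messenger RNAs through its seed, while the partner strand is degraded faster. The 3p strands are the best studied members, and miR-132-3p is known to shape the growth of dendrites and spines.

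The mature sequences are shown because the members pair up by seed on one arm and not on the other. They are given 5′ to 3′ from RefSeq (GRCr8 assembly, chromosome 10, plus strand), with the seed, bases 2 to 8, in capitals.
miR-132-3p: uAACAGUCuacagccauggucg
miR-212-3p: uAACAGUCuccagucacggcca
miR-132-5p: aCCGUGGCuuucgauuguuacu
miR-212-5p: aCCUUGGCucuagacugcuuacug
The 3p arms shared the seed and were identical over the 9 bases from the 5′ end. With miR-132-3p as the reference and positions counted from 1 at the 5′ end, miR-212-3p differed by A10C, C14U, U17C, U20C and G22A. The 5p arms differed inside the seed by G4U and matched at 14 of the 22 positions compared. Among the 414 tested miRNAs with a sequence in the RefSeq table, no other miRNA carried any of the 3 seeds of the cluster. In the same table Mir212 and Mir132 were adjacent genes, with the protein-coding gene Hic1 before them and a long non-coding RNA after them. The Mir132 precursor is shown to place its arms, which are in capitals (GRCr8, chr10:60522033-60522133, plus strand).
Mir132: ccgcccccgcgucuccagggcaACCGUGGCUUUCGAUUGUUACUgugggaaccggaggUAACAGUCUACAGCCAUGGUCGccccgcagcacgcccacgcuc

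Each library held between 10492610 and 15411620 reads counted on miRNAs. The authors deposited read counts, and levels are given here as CPM, counts divided by library totals that were adjusted with edgeR's TMM factors. Values of single libraries are listed in the order of replicates 1, 2 and 3. The arms are 22 to 24 bases long, so no correction for length was made. The smallest count of a member was 623, with an exact 95% Poisson interval from 575 to 674, and intervals of this kind cover counting error only. MCAO-rTMS replicate 3 stood apart from its group. Its log2 CPM differed from the mean of the other 2 libraries of its group by a root mean square of 0.66 over the tested miRNAs, while the same measure lay between 0.36 and 0.49 in the other 5 libraries. The values of the arms are therefore also given without this library.

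After rTMS the cluster had a different make-up rather than a common shift. miR-212-5p was 3.10-fold higher in the MCAO-rTMS group, whereas miR-212-3p, from the same hairpin, was 1.64-fold lower. Neither arm of miR-132 passed the test with all libraries under TMM scaling. Of the 4 arms, 1 was called higher and 1 lower in edgeR's quasi-likelihood test at a Benjamini-Hochberg adjusted p under 0.05. Over all 452 miRNAs tested, 27.2% were called higher and 28.1% lower, so a call as such did not set the arms apart from the rest of the table.

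miR-212-5p, the 5p strand of the miR-212 hairpin, was at 1252, 1244 and 1388 CPM in MCAO rats. In MCAO-rTMS rats it was at 2908, 3241 and 5887 CPM. The lowest MCAO-rTMS value exceeded the highest MCAO value, replicate 3 was the highest, and the groups lay apart as they did for 66.8% of the miRNAs tested. The group levels were 1295 ± 80.7 CPM and 4012 ± 1632 CPM (SD, n = 3 each). The log2 fold change was 1.63 (standard error 0.29, 95% interval from 0.96 to 2.31, adjusted p = 0.00317 in edgeR's quasi-likelihood test), rank 39 of 452. Without MCAO-rTMS replicate 3 it was 1.27 with an adjusted p of 0.000815 in the same test. The arm moved from rank 47 to rank 27 by mean CPM among the 493 miRNAs.

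miR-212-3p, the strand that shares its seed with miR-132-3p, was the rarest of the 4 arms in each of the 6 libraries. It was at 163, 159 and 131.9 CPM in MCAO rats, against 114, 102 and 60.5 CPM under MCAO-rTMS. All MCAO-rTMS libraries were below all MCAO libraries, and here replicate 3 was the lowest. The group levels were 151 ± 16.8 CPM and 92.05 ± 27.9 CPM (SD, n = 3 each). The log2 fold change was -0.72 (standard error 0.26, 95% interval from -1.32 to -0.11). The adjusted p was 0.0485 in edgeR's test, close to the threshold. It lay between 0.0104 and 0.138 over 15 alternative fits and stayed under 0.05 in 8 of them. Leaving out MCAO replicate 1, 2 or 3, or MCAO-rTMS replicate 2, took it to 0.132, 0.138, 0.0828 and 0.114. Without MCAO-rTMS replicate 3 the log2 fold change was -0.46 and the adjusted p 0.0498 in edgeR's test.

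miR-132-3p, the strand best known for promoting dendritic growth, was at 2723, 2928 and 2040 CPM in MCAO rats. In MCAO-rTMS rats it was at 1532, 1504 and 2686 CPM. Under TMM scaling, replicates 1 and 2 of the MCAO-rTMS group were below the MCAO group, while replicate 3 lay inside its range. This overlap depended on the scaling. The TMM factor was 0.695 in MCAO-rTMS replicate 3, 0.863 and 0.864 in replicates 1 and 2, and 1.16 to 1.39 in MCAO rats. In CPM from unadjusted library totals, MCAO-rTMS replicate 3 was at 1868, below the lowest MCAO value of 2843. On library totals, however, the median log2 fold change of all miRNAs tested was -0.80, and 46% were called lower. How many miRNAs lay apart between the groups on library totals was not computed, so this separation does not set the arm apart. The log2 fold change under TMM scaling was -0.43 (standard error 0.28, 95% interval from -1.08 to 0.23, adjusted p = 0.226 in edgeR's test). A difference was thus not resolved with all 6 libraries under this scaling. Without MCAO-rTMS replicate 3 the log2 fold change was -0.73 with an adjusted p of 0.0159 in edgeR's test.

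miR-132-5p, the partner strand of miR-132-3p, was at 2073, 1761 and 1146 CPM in MCAO rats, against 788, 687 and 1619 CPM under MCAO-rTMS. Under TMM scaling the pattern was that of miR-132-3p, with MCAO-rTMS replicate 3 among the MCAO values. In CPM from unadjusted library totals, MCAO-rTMS replicate 3 was at 1126, below the lowest MCAO value of 1597. As for miR-132-3p, this stands beside 46% of all miRNAs tested called lower on library totals. Under TMM scaling the log2 fold change was -0.69 (standard error 0.37, 95% interval from -1.56 to 0.19, adjusted p = 0.154 in edgeR's test). Without MCAO-rTMS replicate 3 it was -1.14 with an adjusted p of 0.0121 in edgeR's test. In that fit 3 of the 4 arms were called lower and miR-212-5p higher, 4 arms in all, where 28% of 468 miRNAs were called lower, 26.1% higher and 54.1% either way.

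**Figure D1:**
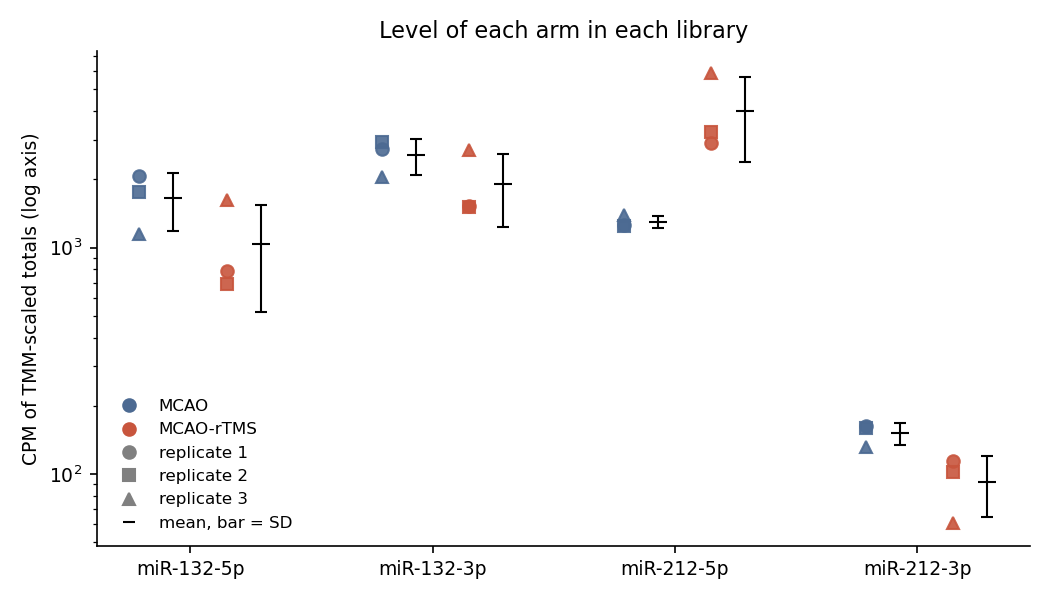
CPM (log axis) of the 4 arms in each of the 6 libraries, coloured by group, with a symbol for each replicate number and a black bar for the mean and SD of 3 libraries. The miR-212-5p points of the MCAO-rTMS group, from 2908 to 5887 CPM, lie above all MCAO points, and MCAO-rTMS replicate 3 is the highest of its group for 3 arms and the lowest for miR-212-3p.

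The order of the levels also differed between the groups. In each MCAO library miR-132-3p was the most abundant arm, and in each MCAO-rTMS library miR-212-5p was. In the MCAO group the mean levels fell from miR-132-3p (2564 ± 465 CPM) through miR-132-5p (1660 ± 472 CPM) and miR-212-5p to miR-212-3p (SD, n = 3). The CPM ranges of the neighbours overlapped, except that miR-212-3p was below the other arms in every library. In the MCAO-rTMS group the order was miR-212-5p, miR-132-3p (1907 ± 675 CPM), miR-132-5p (1031 ± 512 CPM) and miR-212-3p (SD, n = 3). There the range of miR-212-5p did not overlap with that of miR-132-3p, while the ranges of the miR-132 arms did overlap.

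The shares of the arms within the reads of the cluster do not depend on how libraries are scaled. miR-212-5p held 20.2%, 20.4% and 29.5% of these reads in MCAO rats, against 54.4%, 58.6% and 57.4% under MCAO-rTMS. Its mean share went from 23.4% ± 5.31 to 56.8% ± 2.13 (SD, n = 3 each). The share of miR-132-3p was 45.1% ± 2.59 and 27.4% ± 1.25, that of miR-132-5p 28.9% ± 4.51 and 14.3% ± 1.73, and that of miR-212-3p 2.68% ± 0.109 and 1.52% ± 0.817 (SD, n = 3 each). The groups did not overlap in any of the 4 shares, MCAO-rTMS replicate 3 included. Such separation was common, with 66.8% of the miRNAs tested in CPM and 51.9% of the hairpins in the 5p to 3p ratio. The exact two-sided permutation test gave p = 0.1 for each share, which is the smallest p that 3 rats against 3 allow. The shares are not independent of each other, since they add up to the whole and a larger miR-212-5p share lowers the others. The ratios of miR-132-5p and of miR-212-3p to miR-132-3p overlapped between the groups. The widest 95% Wilson interval of a share spanned 0.754 percentage points, less than the spread between rats in either group for the 3 larger shares. The 4 arms together took 0.701% ± 0.0442 of all counts without and 0.551% ± 0.141 with rTMS (SD, n = 3 each), and these ranges overlapped.

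**Figure D2:**
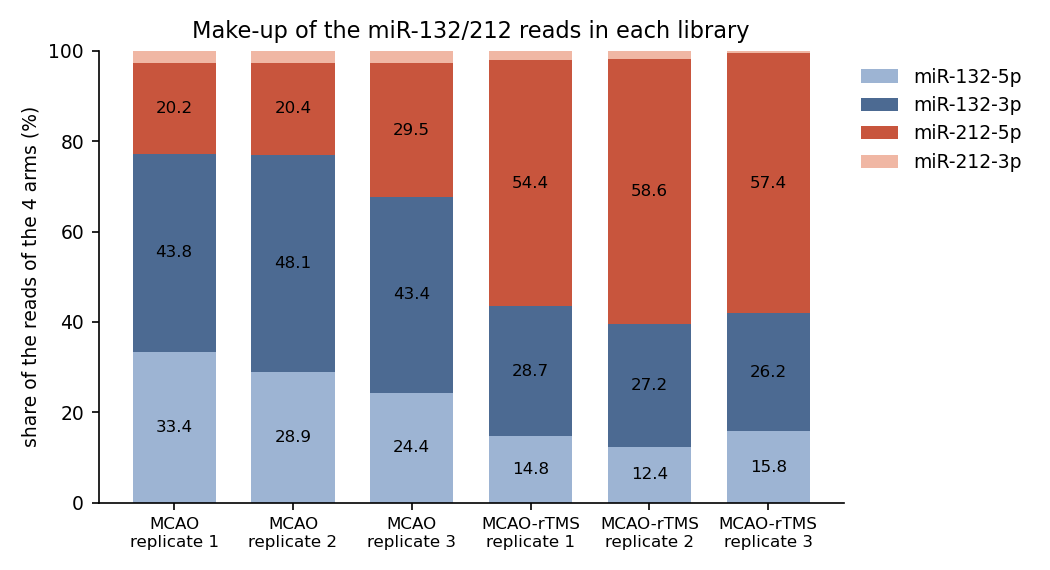
Share (%) of the reads of the 4 arms taken by each arm, 1 stacked bar for each library. The miR-212-5p part grows from between 20.2% and 29.5% in the MCAO bars to between 54.4% and 58.6% in the MCAO-rTMS bars, while both miR-132 parts are smaller in each MCAO-rTMS bar.

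The balance of the strands was read from the ratio of 5p to 3p counts within a library. For the miR-212 hairpin the ratio was 7.68, 7.84 and 10.5 in MCAO rats, against 25.6, 31.8 and 97.2 under MCAO-rTMS. The 5p strand was thus the major strand in all 6 libraries, and its excess was larger in each MCAO-rTMS library than in any MCAO library. The geometric mean ratio went from 8.59 to 42.9, a change of 2.32 on the log2 scale (standard error 0.54, 95% interval from 1.01 to 3.63). The adjusted p was 0.0158 in limma's moderated test over the 133 hairpins with both arms counted, and 0.1, the smallest possible, in the exact permutation test. Without MCAO-rTMS replicate 3 the change was 1.73 (adjusted p = 0.00474 in limma's test, with 23.3% of the hairpins called toward the 5p strand), and without MCAO replicate 1 it was 2.24 and missed the threshold with an adjusted p of 0.0546.

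For the miR-132 hairpin the 3p strand was the major strand in all 6 libraries. The 5p to 3p ratio was 0.761, 0.601 and 0.562 in MCAO rats, against 0.514, 0.457 and 0.603 under MCAO-rTMS. The groups overlapped, and the change of -0.29 on the log2 scale (95% interval from -0.88 to 0.30) did not pass limma's test (adjusted p = 0.400).

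Changes of strand balance were common in the table. Of the 133 hairpins 42.1% were called in limma's test, 22.6% of all toward the 5p and 19.5% toward the 3p strand, and the groups did not overlap for 51.9%. The median size of the change over all hairpins was 1.20 on the log2 scale. The miR-212 hairpin ranked 12 of 133 by change toward the 5p strand, after let-7b (2.46) and miR-342 (2.41) and before let-7e (2.13) and miR-1839 (2.02), all on the log2 scale. Some hairpins ranked above it, such as miR-410, have an arm at 0 in a library. Their ratio there rests on the offset of 0.5 added to each count. The miR-132 hairpin ranked 81, next to miR-145 and miR-152, hairpins with changes of -0.26 and -0.31. Arms called in opposite directions were found in 21 hairpins, or 15.8%. In 7 of these, or 5.26% of all, the 5p strand was higher and the 3p strand lower, namely let-7i, miR-137, miR-1839, miR-212, miR-325, miR-342 and miR-410, a set chosen after the values had been seen.

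**Figure D3:**
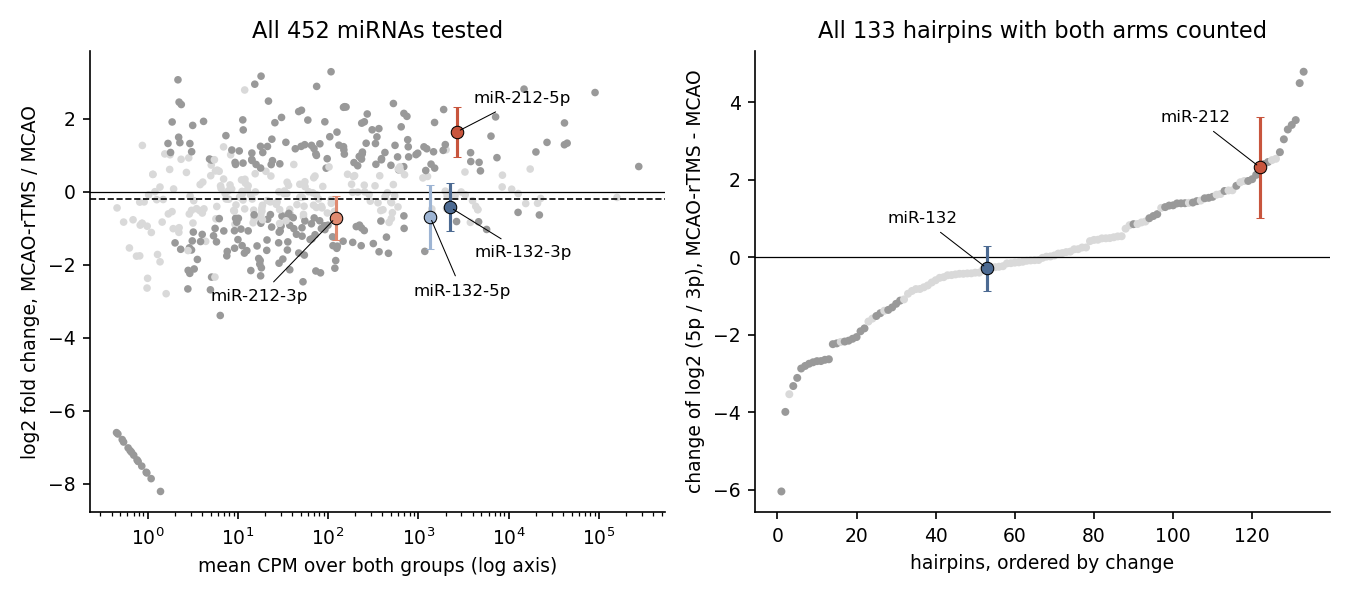
Left, log2 fold change of the 452 miRNAs tested against mean CPM (log axis), with the dashed line at their median of -0.21; right, change of the log2 5p to 3p ratio of 133 hairpins in order of size. Dark grey marks an adjusted p under 0.05, bars on the cluster members are 95% intervals, and miR-212-5p and the miR-212 ratio lie high in each panel while miR-132 lies near the middle; the diagonal run at the lower left is made of miRNAs listed at 0 in all MCAO-rTMS libraries.

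Since the hairpins are cut from a shared transcript, the same arms of the 2 hairpins were also compared within libraries. The ratio of miR-212-5p to miR-132-5p was 0.604, 0.707 and 1.21 in MCAO rats, against 3.69, 4.72 and 3.64 under MCAO-rTMS. Its geometric mean was 4.97-fold higher in the MCAO-rTMS group, without overlap (exact permutation p = 0.1, the smallest possible, and 0.2 after Benjamini-Hochberg adjustment over the 2 same-arm ratios). How often such ratios between other hairpins lie apart was not computed, and this ratio in part restates the higher level of miR-212-5p. MCAO-rTMS replicate 3 did not stand apart in this ratio. The ratio of miR-212-3p to miR-132-3p was 0.0599, 0.0542 and 0.0646 in MCAO rats, against 0.0741, 0.0678 and 0.0225 under MCAO-rTMS. The groups overlapped and the exact permutation p was 1.0, with MCAO-rTMS replicate 3 well below and the other 2 libraries slightly above the MCAO range. The change of -0.30 on the log2 scale became 0.26 without MCAO-rTMS replicate 3, so its direction rests on that library. For the shared seed of the 3p arms this meant that miR-132-3p supplied 94.4% ± 0.467 of the reads without and 94.8% ± 2.57 with rTMS (SD, n = 3 each). The summed level of the 3p arms was 2715 ± 481 CPM and 2000 ± 648 CPM (SD, n = 3 each), with overlapping ranges.

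**Figure D4:**
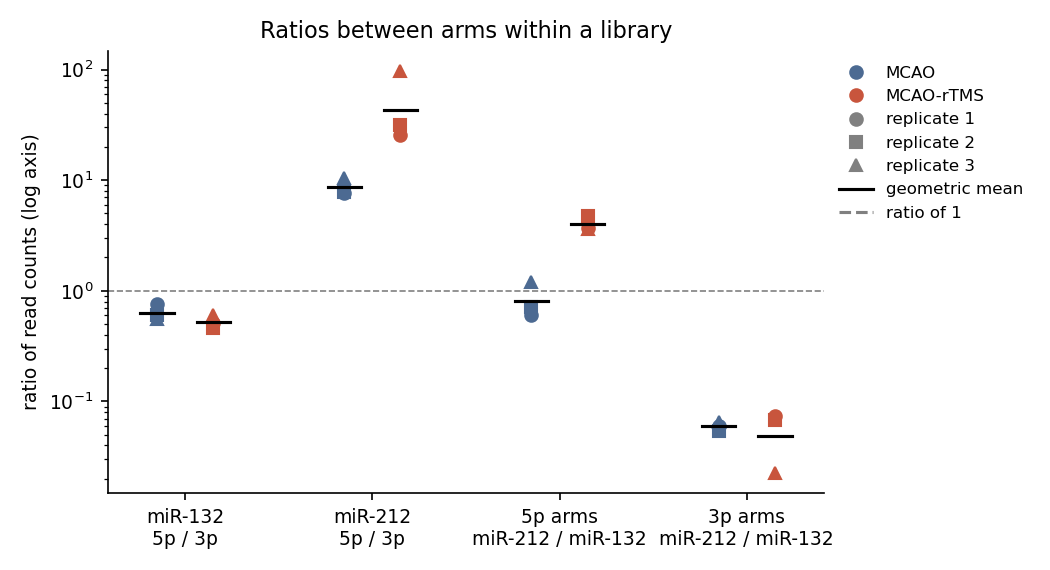
Ratios of read counts within a library (log axis) for the 5p and 3p strands of each hairpin and for the same arm of both hairpins, with points for libraries and black lines for geometric means. The ratios that hold miR-212-5p are higher in all MCAO-rTMS libraries, the 5p to 3p ratio of miR-212 reaches 97.2 in replicate 3, and the other ratios overlap between the groups.

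The scaling of libraries bears on the levels, since most miRNAs shifted together under it. Over the tested miRNAs the median log2 fold change was -0.21 under TMM scaling, against -0.80 when only library totals were used. With library totals only, miR-212-5p was still higher (log2 fold change 0.95, adjusted p = 0.0114 in edgeR's test) and the other 3 arms were called lower, miR-132-3p with -1.08, miR-132-5p with -1.35 and miR-212-3p with -1.30, where 46% of the miRNAs were called lower and 12.2% higher. Relative to the median under the same scaling, miR-212-5p stood at 1.84 with TMM factors and 1.75 on library totals. The corresponding values were -0.22 and -0.28 for miR-132-3p, -0.48 and -0.55 for miR-132-5p, and -0.51 and -0.50 for miR-212-3p. A change of scaling shifts all log2 fold changes by nearly the same amount. The place of each arm among all miRNAs was therefore bound to move little, which is no evidence on the arms themselves. The order of the changes put miR-212-5p above 91.4% and miR-132-3p above 43.4% of the tested miRNAs under TMM scaling, and above 91.2% and 43.1% on library totals.

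**Figure D5:**
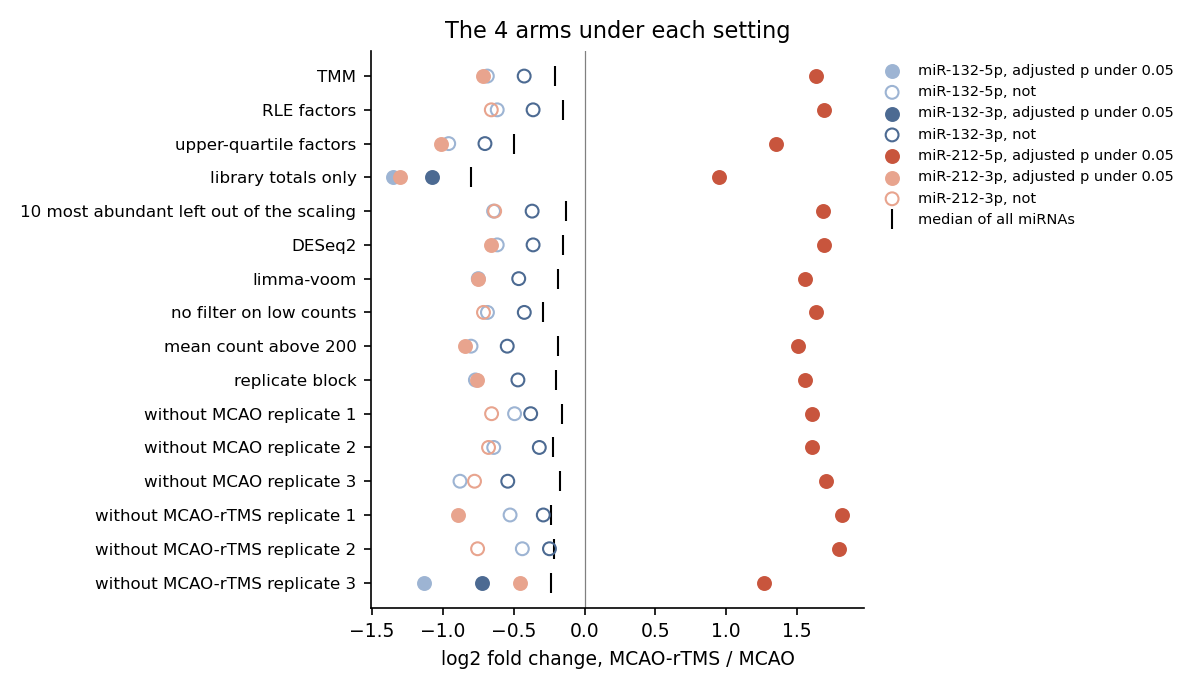
Log2 fold change of the 4 arms under each scaling, tool, filter, block and left-out library, with filled points for an adjusted p under 0.05 and black ticks for the median of all miRNAs. miR-212-5p lies between 0.95 and 1.82 and is filled in every row, whereas the filling of the other arms varies.

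Other miRNAs that background knowledge links to neuronal activity or plasticity were called in both directions, and they were not tested as a set. Of 20 listed, 20 were in the table and 17 were tested, and 4 were called higher and 2 lower in edgeR's test, 6 in all against 55.3% of the miRNAs tested. Their median log2 fold change was -0.16, against -0.21 over all miRNAs. The increases were those of miR-485-5p (log2 fold change 2.14), which lowers the synaptic vesicle protein SV2A, miR-379-5p (1.09) and miR-134-5p (1.03), which limits spine size through Limk1, and miR-128-3p (0.69), which restrains neuronal excitability. The first 3 come from the imprinted cluster that MEF2 drives with activity, and miR-329-3p (-0.01, adjusted p = 0.983 in edgeR's test) and miR-381-3p (0.43, adjusted p = 0.375) of that cluster did not pass. miR-134-3p, the partner strand of miR-134-5p, had a value of -0.47 and did not pass either (adjusted p = 0.253 in edgeR's test). The decreases were those of miR-138-5p (-1.65), another regulator of spine size, and miR-29a-3p (-1.04). With library totals only, 1 of the 17 was called higher and 6 lower, against 12.2% and 46% of all miRNAs. Without MCAO-rTMS replicate 3 the counts were again 4 higher and 2 lower.

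Among the 286 miRNAs with a mean count above 200, those whose profile over the 6 libraries was most like that of each arm were found by the root mean square difference of log2 CPM after centring. For miR-212-5p they were miR-99b-5p (difference 0.11), miR-504 (0.14), miR-342-5p (0.23), miR-378a-3p (0.24) and miR-129-5p (0.24), with log2 fold changes from 1.29 to 1.52. For miR-132-3p they were miR-330-5p (0.08), miR-218a-5p (0.12), miR-340-3p (0.13), miR-99a-5p (0.15) and miR-455-5p (0.16), with log2 fold changes from -0.54 to -0.19. For miR-132-5p the nearest were miR-434-5p (0.13), miR-376b-5p (0.18), miR-218a-5p (0.20), miR-340-3p (0.22) and its partner strand miR-132-3p (0.23). For miR-212-3p they were miR-496-3p (0.08), miR-146a-5p (0.13), miR-125b-5p (0.16), miR-652-3p (0.16) and miR-324-3p (0.16). The arms of miR-212 differed from each other by 1.31 on this measure, which put miR-212-3p at rank 228 among the miRNAs most like miR-212-5p. The summed level of the 4 arms was 5670 ± 836 CPM and 7043 ± 2782 CPM (SD, n = 3 each), with overlapping ranges. The higher mean with rTMS rests on MCAO-rTMS replicate 3, at 10253 CPM against 5341 and 5534 CPM. As a part of all counts the mean went the other way, from 0.701% to 0.551%. The profile of the sum in CPM was most like miR-493-3p (0.12), let-7b-3p (0.14), miR-138-1-3p (0.15), miR-101a-3p (0.15) and miR-676 (0.20).

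The tissue label was checked against miRNAs that mark cell types, and the counts called in edgeR's test are to be read against the 27.2% called higher and 28.1% called lower over the table. The 9 neuronal markers were all tested, and 2 were called higher and 3 lower. Their summed level was 340311 to 443926 CPM without rTMS and 458801 to 673444 CPM with it. The sum was led by miR-128-3p, with means of 212040 CPM without and 341038 CPM with rTMS. Next came miR-9a-5p, with 167618 and 150023 CPM. The median log2 fold change of the 9 markers was -0.50, against -0.21 over all miRNAs tested, so the sum did not stand for most of them. The number called was 3 without MCAO replicate 1, 2 or 3 and 6 without MCAO-rTMS replicate 3. Of 7 microglial and leukocyte markers 5 were called lower and none higher, and their summed level was 3048 to 3996 CPM without and 2224 to 2782 CPM with rTMS. Of these 7, 3 were called without MCAO replicate 1 or 2 or without MCAO-rTMS replicate 1 or 2, and 4 without MCAO-rTMS replicate 3.

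For oligodendrocytes 2 of 3 tested were called higher, with summed levels of 788 to 1062 CPM and 1275 to 2576 CPM. Without MCAO-rTMS replicate 2 none of them was called, and 1 was without MCAO replicate 1 or MCAO-rTMS replicate 1. The endothelial markers (1 of 2 lower), smooth muscle and pericyte markers (1 of 3 higher) and red blood cell markers (1 higher and 1 lower of 2 tested) had summed levels of 2993 to 6298, 1972 to 3495 and 141 to 302 CPM in the MCAO group. In the MCAO-rTMS group these sums were 2017 to 3293, 4361 to 6733 and 513 to 637 CPM. Of the red blood cell markers, the mean of miR-486 went from 170 to 561 CPM and that of miR-451-5p from 31.5 to 10.3 CPM. The endothelial count was 2 without MCAO replicate 3, the smooth muscle and pericyte count was 0 without MCAO replicate 2 or MCAO-rTMS replicate 1, and the red blood cell count was 1 when any of the other libraries than MCAO replicate 3 was left out. With library totals only, where 12.2% of all miRNAs were called higher and 46% lower, the calls were 1 higher and 6 lower for neurons, 7 lower for microglia and leukocytes, 1 lower for oligodendrocytes, 2 lower for endothelium, 0 for smooth muscle and pericytes, and 1 higher and 1 lower for red blood cells. The part of such shifts in the values of the miR-132 and miR-212 arms was not tested, and in bulk tissue fewer cells of a type and less RNA per cell cannot be told apart.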

How the data were processed

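Small RNA libraries of the peri-infarct cortex were made with a NEBNext kit and sequenced on an Illumina HiSeq platform. The authors deposited read counts of 493 mature miRNAs for 6 libraries, and a smaller table with a selection of these rows, which was not used. The submitters' processing notes name bcl2fastq, BWA, DESeq2 and rn6 without roles, and the miRNA database and the treatment of reads with several matches are not given in the sources used here. Counts from 1 to 9 do not occur, and 286 of 2958 values are 0. A value of 0 may thus stand for any count under 10, which bears on fold changes and ratios of rare miRNAs. The smallest count of a member, 623, was far above this range.

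Groups and replicate numbers came from the sample titles. Rows were filtered with filterByExpr, library totals were scaled with TMM, and the groups were compared with edgeR 4.0.16 (quasi-likelihood test) in R 4.3.3, with Benjamini-Hochberg adjustment over 452 miRNAs and a threshold of 0.05. The standard error is the size of the log2 fold change divided by the square root of F. The 5p to 3p ratio was computed as log2 of counts plus 0.5, for 133 hairpins with a mean count of at least 10 on each arm, and tested with limma 3.58.1. Single ratios were tested with exact permutation tests in scipy 1.17.1, two-sided. The fits were run on simulated counts with known changes in both directions and the same spread for all miRNAs. The simulation held no shift of scaling and no outlying library, so it checks the code and not the choice of scaling. Mature and hairpin sequences are from RefSeq, in which all 4 members and the Mir132 hairpin matched.

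The members, the lists and the rules were chosen with earlier results of these data known. Besides the 4 members, named miRNAs are those of the activity and cell marker lists, the 5 nearest profiles of each arm and of their sum, the hairpins ranked next to the members, and the hairpins with the 5p strand called higher and the 3p strand lower, which were chosen after their values were seen. The alternatives covered scaling (library totals only, RLE factors, upper-quartile factors, or without the 10 most abundant miRNAs), the tool (DESeq2 1.42.0 or limma-voom), filters and offsets, a replicate block, and leaving out 1 library at a time. No 2 libraries agreed within counting noise. The p-values of edgeR and limma set the difference between groups against the spread between rats, moderated over all miRNAs or hairpins tested. The exact permutation tests compare the difference with that of all regroupings of the 6 libraries.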

Additional observations from a re-analysis of the deposited data

How the results depend on the processing

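miR-212-5p was called higher in all 15 alternative fits, with log2 fold changes from 0.95 to 1.82, and the number of miRNAs called over the table ranged from 179 to 263, against 250. miR-212-3p missed the threshold with RLE factors (-0.66), without the 10 most abundant miRNAs in the scaling (-0.63) and without a filter (-0.71). With library totals only, miR-132-3p (-1.08) and miR-132-5p (-1.35) passed it, and 20.9% of all calls were increases, against 49.2% with TMM factors and 33.1% with upper-quartile factors. When 1 library was left out the log2 fold change ranged from -0.73 to -0.25 for miR-132-3p, from -1.14 to -0.44 for miR-132-5p, from -0.90 to -0.46 for miR-212-3p and from 1.27 to 1.82 for miR-212-5p. The change of the 5p to 3p ratio of miR-212 then ranged from 1.73 to 2.69, and that of the ratio of miR-212-3p to miR-132-3p from -0.60 to 0.26, reversed at 0.26 without MCAO-rTMS replicate 3. The cause was not tested. The ratio of miR-132 was not called under any of the 10 alternative tests. The numbers of the activity-linked list called ranged from 5 to 8.

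The replicate numbers showed no sign of pairing the rats. Deviations from the group means correlated with 0.20, -0.12 and -0.11 for numbers 1, 2 and 3, and from -0.28 to 0.30 between unlike numbers. With 3 libraries in each group this check cannot exclude a pairing. With the replicate block 180 miRNAs were called, and the log2 fold changes were 1.56 for miR-212-5p, -0.76 for miR-212-3p, -0.47 for miR-132-3p and -0.77 for miR-132-5p, with no call of a member changed. With at least 10492610 counts in a library, the number of rats, 3 in each group, limits these comparisons more than depth.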
